A study of Homo sapiens with 6 samples.

Results

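The genes described here are 43 nuclear genes for mitochondrial protein synthesis, made up of 16 mitochondrial aminoacyl-tRNA synthetases and 27 factors that start, extend, end, prepare or insert the products of translation inside the organelle. They were chosen by name, and each was matched by its Ensembl identifier to 1 of the 58096 gene rows of the count table. All 43 had enough reads to be tested, among 19343 tested genes. The libraries came from SH-SY5Y, a subcloned human neuroblastoma line labelled as a neuronal progenitor, in which poly(A) RNA was sequenced 48 h after 2 ul of an adenovirus was added. The control group, GFP, received the virus carrying GFP, and the other group, PGC1A, received the virus carrying PGC-1a, with 3 libraries each. The series asks how expressing PGC-1a, a coactivator of transcription known for driving mitochondrial biogenesis, alters gene expression in these cells. Equal volumes of virus are given without a titre or the promoter of the insert, and uninfected cells were not analysed here, so effects of virus dose and of PGC-1a cannot be told apart.

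Mitochondria carry their own genome, which encodes a small set of respiratory chain subunits together with the ribosomal and transfer RNAs that read them. Every protein of the translation machinery is encoded in the nucleus and imported. Most synthetases have separate cytosolic and mitochondrial genes, and mitochondria make glutaminyl-tRNA by a detour in which EARS2 first attaches glutamate and the GatCAB amidotransferase then converts it. In muscle, heart and brain, loss of many of these genes is known to cause combined respiratory chain deficiency.

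Gene counts summed to between 24988743 and 31762496 in a library. PPARGC1A, the gene of PGC-1a, stood at 3.49, 3.95 and 3.79 CPM (gene counts scaled to a common library size by the TMM method) in GFP and at 4088, 3971 and 4065 in PGC1A. Of 10 sympathetic neuroblastoma markers, TH had no reads in GFP and 7, 5 and 9 reads in PGC1A. Their summed level was 1236 to 1257 CPM in GFP and 564 to 574 CPM in PGC1A, that of 7 fibroblast and mesenchymal markers was 1255 to 1279 and 520 to 529 CPM, and that of 5 Schwann cell markers was 7.69 to 8.73 and 1.65 to 2.17 CPM, with SOX10 at 0 in both groups. Of the markers tested, 8 of 9, 6 of 7 and 2 of 3 were lower in that order (edgeR, adjusted p under 0.05), against 42.1% of all tested genes. The Schwann cell marker ERBB3 rose, from a mean of 0.438 to 0.773 CPM, and the fibroblast marker PRRX1 did not pass (1.74 and 1.72 CPM). COL3A1 alone, at a mean of 1056 and 479 CPM, made up most of the fibroblast sum. The part of these marker differences in the results below was not tested, and in bulk RNA fewer cells of a type and less RNA per cell cannot be told apart. Whether libraries of 1 group were grown as separate cultures is not stated in the labels. Each p-value therefore reflects the spread among these libraries alone, which may be technical.

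The promoters of the 4 members with the largest rises and of the 2 that fell are shown first, because they frame the range of responses. Each run holds 250 bases before and 50 bases after the gene start (RefSeq, GRCh38.p14, gene strand, 5′ to 3′), and capitals mark matches to the motifs searched. These were the estrogen-related receptor site (AAGGTCA, and the extended TNAAGGTCA), the NRF1 palindrome (exact, or with its sixth base free), the ETS motif read by GABP (CCGGAAG) and YY1 (AAGATGGC), each on both strands. AAGGTCA lies inside TNAAGGTCA, and an exact NRF1 match is also a match with a free base.
MARS2, chr2:197705119-197705418, plus strand: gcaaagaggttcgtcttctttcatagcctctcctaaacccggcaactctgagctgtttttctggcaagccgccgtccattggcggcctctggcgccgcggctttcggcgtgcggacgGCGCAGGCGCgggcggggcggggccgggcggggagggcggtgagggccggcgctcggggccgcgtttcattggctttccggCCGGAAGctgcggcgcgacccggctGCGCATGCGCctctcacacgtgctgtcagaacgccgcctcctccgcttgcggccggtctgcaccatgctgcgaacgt
LARS2, chr3:45388326-45388625, plus strand: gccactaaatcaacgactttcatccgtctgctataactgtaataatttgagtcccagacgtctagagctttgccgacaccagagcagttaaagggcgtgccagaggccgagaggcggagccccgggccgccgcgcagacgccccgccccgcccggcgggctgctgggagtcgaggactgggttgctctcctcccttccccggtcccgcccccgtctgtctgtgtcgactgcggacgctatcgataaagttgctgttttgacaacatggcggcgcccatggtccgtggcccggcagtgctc
TACO1, chr17:63600645-63600944, plus strand: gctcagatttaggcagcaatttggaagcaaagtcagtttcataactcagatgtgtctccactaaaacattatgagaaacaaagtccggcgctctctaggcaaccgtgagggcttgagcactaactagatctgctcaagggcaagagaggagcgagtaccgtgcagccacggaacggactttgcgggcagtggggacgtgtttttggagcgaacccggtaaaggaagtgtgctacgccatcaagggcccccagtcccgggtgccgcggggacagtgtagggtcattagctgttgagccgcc
GUF1, chr4:44678170-44678469, plus strand: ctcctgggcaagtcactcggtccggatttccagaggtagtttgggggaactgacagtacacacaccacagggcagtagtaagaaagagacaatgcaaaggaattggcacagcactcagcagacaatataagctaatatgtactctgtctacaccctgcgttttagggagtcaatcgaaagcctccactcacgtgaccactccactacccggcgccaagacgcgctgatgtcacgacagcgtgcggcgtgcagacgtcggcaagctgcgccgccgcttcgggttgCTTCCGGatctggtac
GATC, chr12:120446194-120446493, plus strand: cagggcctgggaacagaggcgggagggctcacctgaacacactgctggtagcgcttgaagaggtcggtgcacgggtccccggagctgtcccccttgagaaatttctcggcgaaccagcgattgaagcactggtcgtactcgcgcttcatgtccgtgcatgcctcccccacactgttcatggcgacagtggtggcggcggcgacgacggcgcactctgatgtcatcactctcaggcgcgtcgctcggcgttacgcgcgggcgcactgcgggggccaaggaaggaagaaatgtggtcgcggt
RARS2, chr6:87589938-87590237, minus strand: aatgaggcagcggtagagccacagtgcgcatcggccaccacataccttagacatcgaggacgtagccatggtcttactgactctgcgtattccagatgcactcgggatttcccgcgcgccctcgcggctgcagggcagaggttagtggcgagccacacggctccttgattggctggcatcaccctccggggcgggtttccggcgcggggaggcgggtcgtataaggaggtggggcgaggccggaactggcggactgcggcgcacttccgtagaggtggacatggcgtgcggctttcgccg
The MARS2 window held an ETS match beginning 52 bases before the start, an exact NRF1 match 27 bases before it and a further NRF1 match with a free base 133 bases before it. That of GUF1 held an ETS match 34 bases after the start, and those of LARS2, TACO1, GATC and RARS2 held none of these letters.

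Most mitochondrial translation genes rose. With edgeR's quasi-likelihood test, 35 of 43 members were higher in PGC1A, 2 were lower (RARS2 and GATC) and 6 did not pass an adjusted p of 0.05. Change was widespread in these libraries: 83.0% of all tested genes were called in either direction, 40.9% higher and 42.1% lower. At least 2-fold rises were seen in 22 members, against 19.0% of tested genes, and at least 2-fold falls in 0, against 16.8%. The median log2 fold change was 1.03 over the members and -0.03 over all tested genes. The groups did not overlap in 38 members, a share near the 83.6% of tested genes for which this held. Together the 43 genes held 0.204%, 0.205% and 0.204% of gene reads in GFP and 0.391%, 0.391% and 0.389% in PGC1A. Against a 1.5-fold change (glmTreat), 30 members were higher and 0 lower, beside 24.6% and 23.1% of tested genes. With total counts in place of TMM, which lowers the median of all genes by 0.33, 35 members were higher and 6 lower. Of the 19343 tested genes, 5778 were then higher and 10743 lower. With upper-quartile factors, which lower that median by 0.13, 35 members were higher and 4 lower, beside 7047 and 9234 genes.

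**Figure D1:**
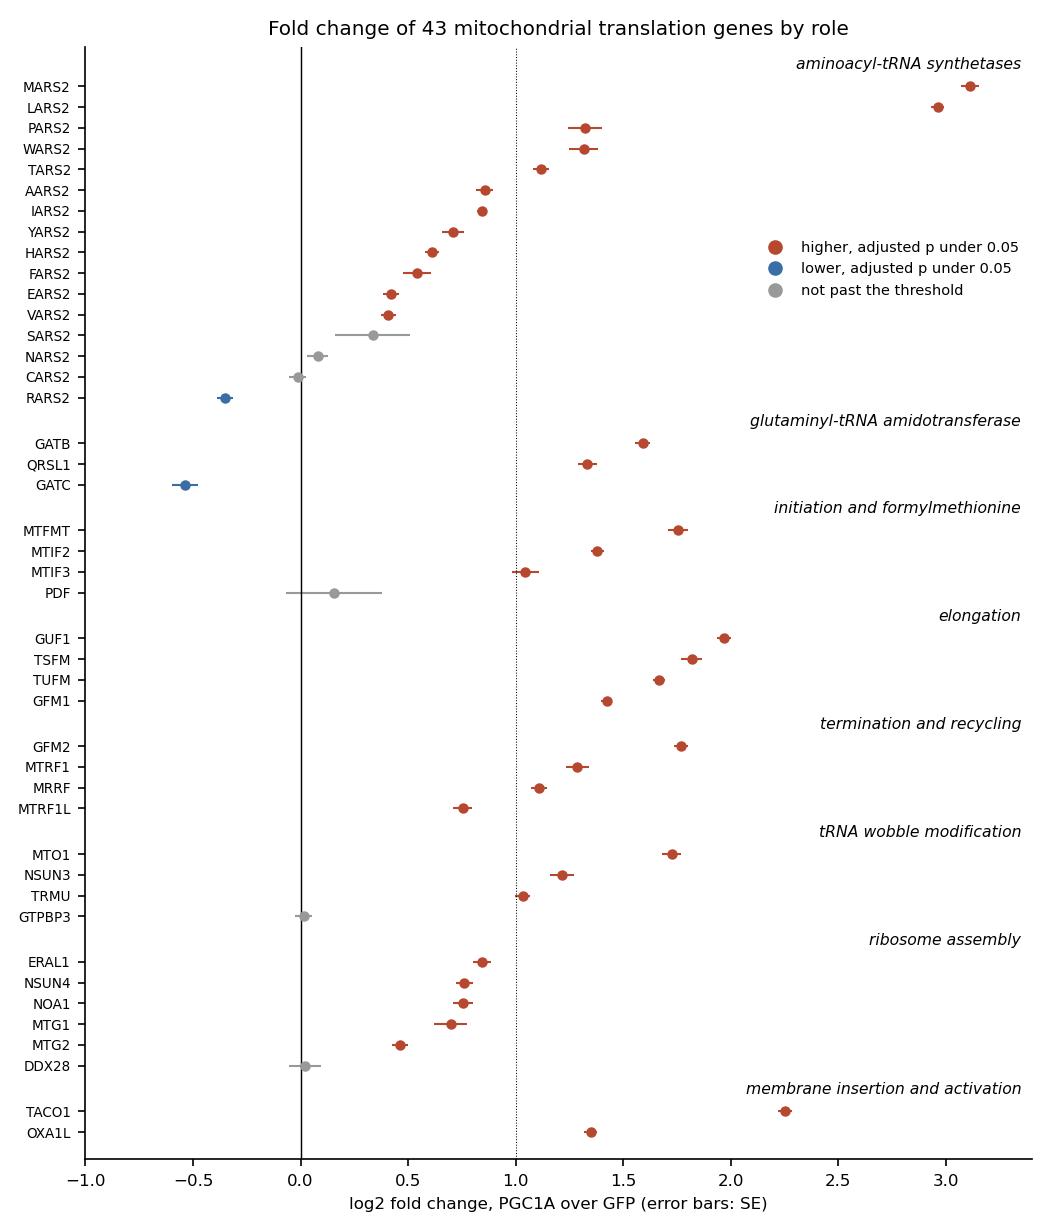
Each point is the log2 fold change of a member, PGC1A over GFP, with its SE as a horizontal bar, grouped by role; the dotted line marks a 2-fold rise. MARS2 and LARS2 stand apart at 3.11 and 2.96, all 4 elongation genes lie between 1.42 and 1.97, and the ribosome assembly genes stay below 1.

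Synthetases spanned the widest range of log2 fold changes of the 8 roles. Each of these enzymes loads a single kind of amino acid onto its tRNA. Of 16, 12 were higher, 1 was lower and 3 did not pass, and the median log2 fold change was 0.66, with a range from -0.35 to 3.11. The 9 class I enzymes had 7 higher and 1 lower (median 0.71) and the 7 class II enzymes 5 higher and 0 lower (median 0.61).

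MARS2, the methionyl-tRNA synthetase (ENSG00000247626.4, chromosome 2, 197705369 to 197708387, GRCh38, GENCODE 29), stood at 11.5, 11.9 and 11.5 CPM in GFP and 101, 101 and 99.9 CPM in PGC1A. All 3 PGC1A libraries were far above all 3 GFP libraries, an 8.63-fold rise (log2 3.11, SE 0.04, adjusted p = 4.59e-48). LARS2, the leucyl enzyme (ENSG00000011376.9, chromosome 3, 45388506 to 45549421), stood at 46.8, 48.8 and 47.0 CPM in GFP and 372, 369 and 370 CPM in PGC1A, a 7.79-fold rise (log2 2.96, SE 0.03, adjusted p = 4.72e-54). These rises exceeded those of 96.3% and 95.9% of tested genes. After them came a gap. PARS2 (prolyl) was next at a log2 fold change of 1.32, followed by WARS2 (tryptophanyl, 1.32) and TARS2 (threonyl, 1.12).

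Smaller rises were found in AARS2 (alanyl, 0.86), IARS2 (isoleucyl, 0.84), YARS2 (tyrosyl, 0.71), HARS2 (histidyl, 0.61), FARS2 (phenylalanyl, 0.54), EARS2 (glutamyl, 0.42) and VARS2 (valyl, 0.41), all on the log2 scale. IARS2, the highest synthetase per kilobase of exon in both groups (57.9 and 104 CPM per kb), moved from 241 ± 3.12 to 433 ± 1.98 CPM (SD, n = 3). HARS2, FARS2, EARS2 and VARS2 did not pass the test against a 1.5-fold change, and VARS2 shares 22.0% of its exon bases with GTF2H4 on the same strand.

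RARS2, the arginyl enzyme (ENSG00000146282.17, chromosome 6, 87514378 to 87590003), fell. It stood at 72.4, 73.0 and 71.8 CPM in GFP and 57.0, 60.7 and 52.6 CPM in PGC1A, with no overlap (log2 fold change -0.35, SE 0.04, adjusted p = 1.03e-11). Against a 1.5-fold change it did not pass (adjusted p = 1 with glmTreat). In levels per kilobase of exon RARS2 ranked 3rd among the members in GFP, at 28.4 CPM per kb, and 14th in PGC1A, at 22.3.

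CARS2, the cysteinyl enzyme, had 46.0, 45.8 and 43.7 CPM in GFP and 45.6, 46.9 and 41.5 CPM in PGC1A, and these overlap (log2 fold change -0.01, SE 0.04, adjusted p = 0.761). NARS2, the asparaginyl enzyme, had 24.6, 25.7 and 25.3 CPM against 27.0, 27.2 and 25.7 CPM (0.08, SE 0.05, adjusted p = 0.125). Its groups were separated only by a small step. Both genes were called lower with total counts (-0.34 and -0.25 on the log2 scale), and CARS2 also with upper-quartile factors (-0.14, adjusted p = 0.00153). NARS2 was called higher with DESeq2-type size factors (0.12, adjusted p = 0.0260) and without PGC1A replicate 3 (0.12, adjusted p = 0.0427).

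SARS2, the seryl enzyme, had 1.96, 1.63 and 1.21 CPM in GFP and 1.98, 2.13 and 1.84 CPM in PGC1A (0.34, SE 0.17, adjusted p = 0.0712), and passed with DESeq2-type size factors (adjusted p = 0.0463) and without GFP replicate 1 (adjusted p = 0.0206). The groups overlap, and the count rests on part of the gene. In GENCODE 29, 46.2% of its exon bases also belong to another gene on the same strand, and reads that fit several genes, 6.66% to 7.04% of the reads in the table, are not assigned to any.

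Next, the genes that turn glutamate into glutamine on the tRNA split. GATB and QRSL1, which supply the B subunit and the catalytic A subunit of GatCAB, rose, while GATC, the small C subunit, fell. GATB had 37.1, 37.3 and 37.6 CPM in GFP and 118, 110 and 109 CPM in PGC1A (log2 fold change 1.59, SE 0.04, adjusted p = 9.55e-39). QRSL1 had 23.3, 24.95 and 24.7 CPM against 61.6, 63.9 and 58.7 CPM (1.33, SE 0.04, adjusted p = 3.25e-32). For both, every PGC1A library lay above every GFP library. GATC (ENSG00000257218.5, chromosome 12, 120446438 to 120463749) had 22.0, 19.6 and 21.3 CPM against 14.5, 14.0 and 14.7 CPM, with no overlap in the other direction (-0.54, SE 0.06, adjusted p = 1.78e-11; glmTreat adjusted p = 0.835).

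A ratio of 2 genes within a library does not depend on the scaling. The log2 ratio of GATC to GATB reads was -0.83 ± 0.0858 in GFP and -2.96 ± 0.0688 in PGC1A (SD, n = 3), and that of GATC to QRSL1 from -0.22 ± 0.132 to -2.09 ± 0.0966. For each, the exact two-sided permutation p over libraries was 0.1, the smallest that 3 against 3 allows. Of the GATC exon bases, 47.6% also lie in another gene, mostly SRSF9 on the opposite strand, which rose by 0.79 on the log2 scale. The library kit kept strand, but how the counting treated strand was not given in the sources used here.

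**Figure D2:**
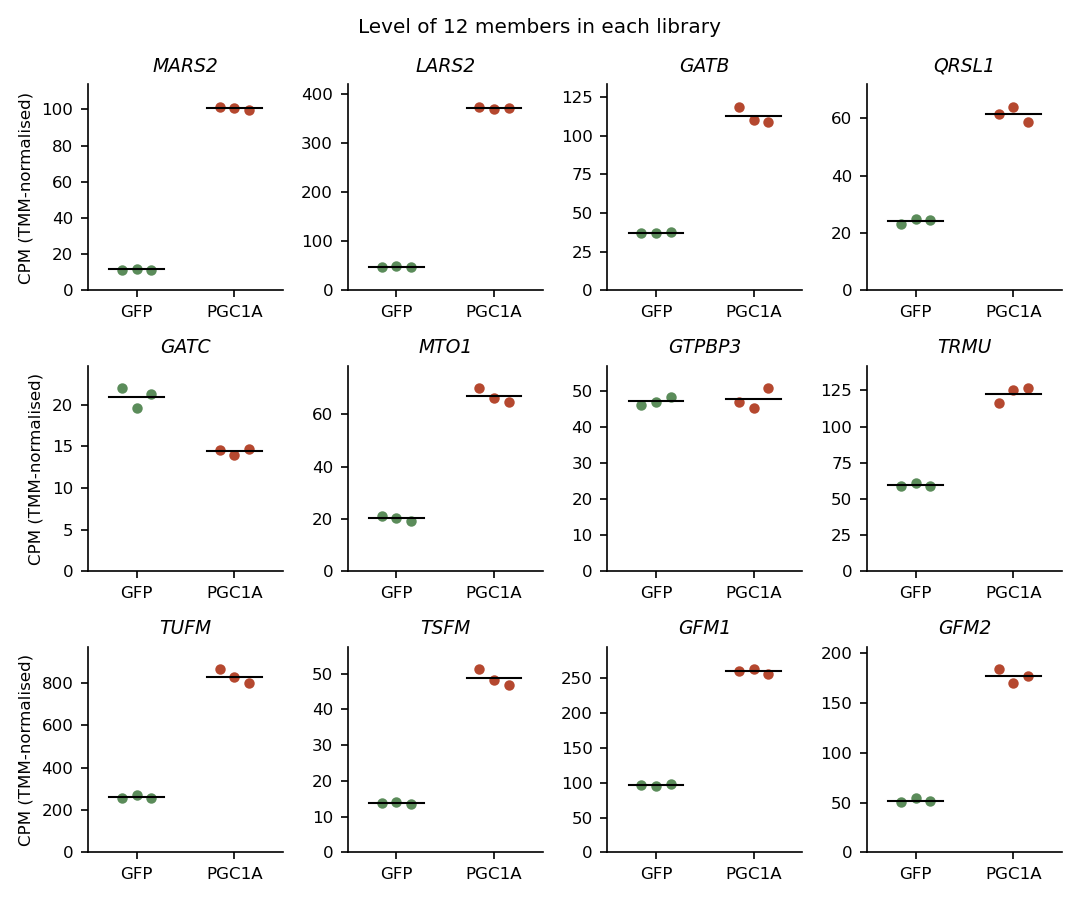
Normalised level (CPM, linear axes from 0) of 12 members in each of the 6 libraries, with a line at each group's mean. GATC lies lower in PGC1A and GTPBP3 overlaps between the groups, while the other 10 genes have all PGC1A libraries above all GFP libraries.

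Initiation rose apart from the deformylase. Translation in mitochondria begins with formylmethionine, which MTFMT makes on the charged tRNA, MTIF2 brings to the ribosome and PDF later trims; MTIF3 keeps the ribosomal subunits apart before the start. MTFMT had 16.9, 16.1 and 15.6 CPM in GFP and 54.7, 56.2 and 52.7 CPM in PGC1A (log2 fold change 1.75, SE 0.05, adjusted p = 1.20e-35). MTIF2 had 53.7, 55.0 and 55.7 CPM against 142, 145 and 142 CPM (1.38, SE 0.03, adjusted p = 6.50e-39). In both genes the groups were far apart, and MTIF3 rose by 1.04. PDF had 0.927, 0.815 and 1.12 CPM against 0.935, 1.10 and 1.18 CPM, which overlap (0.15, SE 0.22, adjusted p = 0.521). Of the PDF exon bases, 48.3% also belong to COG8 or another gene on the same strand, so its count too covers part of the gene. Along the path of the initiator methionine, MARS2 rose more than MTFMT. Their log2 ratio went from -0.48 ± 0.0645 to 0.88 ± 0.0398 (SD, n = 3, exact permutation p = 0.1).

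Elongation had the narrowest range of the 8 roles, from 1.42 to 1.97 on the log2 scale, with all 4 genes higher by at least 2-fold (median 1.74 on the log2 scale). TUFM, the factor that delivers charged tRNA to the ribosome, had 258, 269 and 257 CPM in GFP and 863, 828 and 797 CPM in PGC1A (1.67, SE 0.03, adjusted p = 1.43e-42). It was the highest member in both groups per kilobase of exon, at 115 CPM per kb in GFP and 365 CPM per kb in PGC1A, and it took 14.1% to 14.6% of the members' reads in GFP and 18.4% to 19.4% in PGC1A. TSFM, which reloads TUFM with GTP, had 13.8, 14.1 and 13.6 CPM against 51.2, 48.4 and 46.8 CPM (1.82, SE 0.05, adjusted p = 3.75e-35). The ratio of TUFM to TSFM reads moved little beside these rises, from a log2 of 4.24 ± 0.0146 to 4.09 ± 0.0116, although its groups did not overlap (exact permutation p = 0.1). GUF1, the counterpart of a bacterial factor that moves stalled ribosomes back, had 35.2, 33.4 and 35.0 CPM against 137, 134 and 135 CPM (1.97, SE 0.03, adjusted p = 7.95e-44), the largest rise of the role. GFM1, the translocase, rose by 1.42. TSFM shares 18.7% of its exon bases with another gene on the same strand, for which no library had a read.

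All 4 genes of termination and recycling rose. GFM2, which with the recycling factor MRRF splits the ribosome after termination, had 50.1, 54.5 and 51.2 CPM in GFP and 184, 170 and 177 CPM in PGC1A (log2 fold change 1.77, SE 0.03, adjusted p = 1.59e-41). MTRF1, a release factor linked to non-standard stop codons, had 13.8, 12.4 and 13.4 CPM against 32.8, 32.2 and 31.5 CPM (1.29, SE 0.05, adjusted p = 6.31e-27). No PGC1A library of either gene came near the GFP range. MRRF rose by 1.11, and MTRF1L, the paralog that reads the standard stop codons, by 0.75. Within libraries the log2 ratio of MTRF1 to MTRF1L went from -0.77 ± 0.0815 to -0.24 ± 0.0622 and that of GFM1 to its paralog GFM2 from 0.90 ± 0.0764 to 0.56 ± 0.0616 (SD, n = 3, exact permutation p = 0.1 for each).

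Enzymes that modify the wobble base of mitochondrial tRNAs did not move together. MTO1 and GTPBP3 form the enzyme that adds taurinomethyl groups to the wobble uridine. MTO1 had 21.2, 20.5 and 19.3 CPM in GFP and 69.9, 66.3 and 64.9 CPM in PGC1A (log2 fold change 1.72, SE 0.04, adjusted p = 1.44e-36). GTPBP3 had 45.9, 46.8 and 48.4 CPM against 47.0, 45.1 and 50.6 CPM, which overlap (0.01, SE 0.04, adjusted p = 0.753). The log2 ratio of GTPBP3 to MTO1 went from 1.21 ± 0.106 to -0.50 ± 0.120 (SD, n = 3, exact permutation p = 0.1). With total counts and upper-quartile factors GTPBP3 was called lower (-0.32 and -0.11).

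NSUN3, which methylates the wobble cytosine of the methionine tRNA, had 16.1, 13.7 and 16.4 CPM in GFP and 35.6, 36.5 and 35.0 CPM in PGC1A (1.21, SE 0.05, adjusted p = 1.71e-25). TRMU, which adds sulfur to the wobble uridine, rose by 1.03. In both, all PGC1A libraries were above all GFP libraries.

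Of the 6 ribosome assembly genes, 5 were higher, but 0 by 2-fold (median 0.73 on the log2 scale). ERAL1, a chaperone of the small subunit's rRNA, had 30.4, 33.6 and 33.0 CPM in GFP and 58.7, 58.0 and 57.8 CPM in PGC1A (0.84, SE 0.04, adjusted p = 8.04e-25). NSUN4, an rRNA methyltransferase, had 35.3, 34.0 and 36.3 CPM against 58.7, 58.6 and 61.6 CPM (0.76, SE 0.04, adjusted p = 1.66e-23). In these 2 genes the PGC1A libraries sat well above the GFP libraries. The GTPase genes NOA1, MTG1 and MTG2 rose by 0.76, 0.70 and 0.46, and MTG2 did not pass against a 1.5-fold change. MTG1 shares 29.9% of its exon bases with another gene on the same strand. DDX28, an RNA helicase of the large subunit, had 11.3, 11.7 and 9.72 CPM against 11.3, 11.2 and 10.6 CPM (0.02, SE 0.07, adjusted p = 0.795). Its groups overlap, and with total counts it was called lower (-0.31).

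TACO1 and OXA1L, grouped here as membrane insertion and activation, both rose. TACO1, which activates translation of the cytochrome oxidase subunit MT-CO1, had 38.1, 37.0 and 36.6 CPM in GFP and 183, 177 and 171 CPM in PGC1A (log2 fold change 2.25, SE 0.03, adjusted p = 1.80e-46). It was the third largest rise of all members. OXA1L, the insertase that places newly made proteins in the inner membrane, had 74.6, 75.5 and 74.5 CPM against 194, 185 and 193 CPM (1.35, SE 0.03, adjusted p = 1.65e-39), with the groups far apart.

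Summed over each role, the levels show how much of the pool each contributes. The elongation genes went from 407 ± 4.90 to 1274 ± 37.8 CPM (SD, n = 3), 3.13-fold, and the synthetases from 719 ± 7.32 to 1491 ± 9.37 CPM, 2.07-fold. IARS2 was the highest synthetase, and LARS2 and MARS2 rose most. Without these genes, the other 13 synthetases went from 419 ± 5.26 to 587 ± 10.2 CPM, 1.40-fold. Leaving out the largest rises lowers the fold by construction. The ribosome assembly genes went from 157 ± 1.48 to 246 ± 2.24 CPM, 1.57-fold. In levels per kilobase, LARS2 moved from rank 19 among the members in GFP (6.96 CPM per kb) to rank 4 in PGC1A (54.2), and MARS2 from rank 32 (3.86) to rank 8 (33.3).

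**Figure D3:**
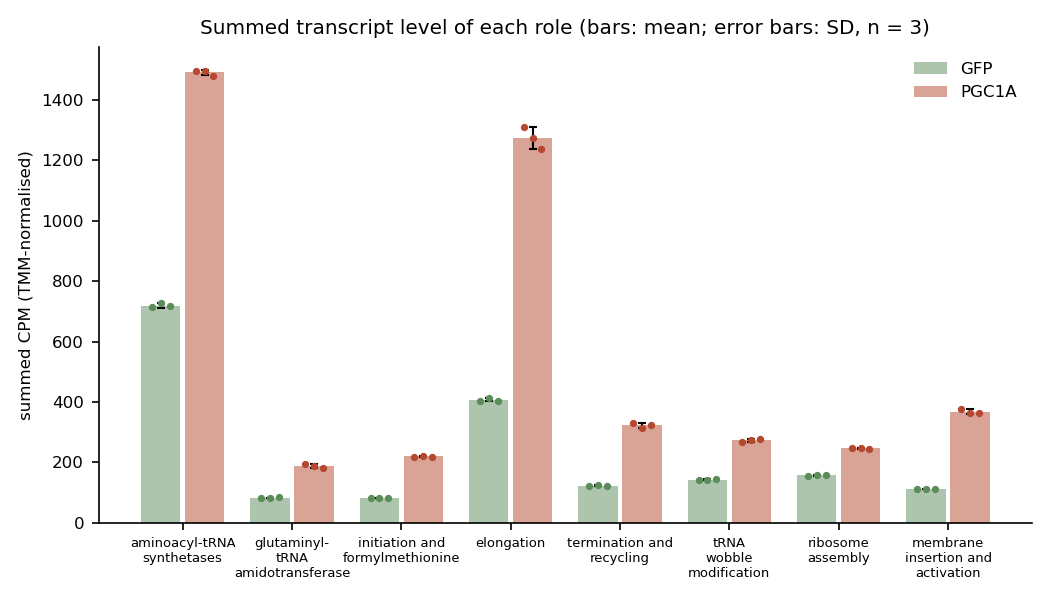
Bars give the mean summed CPM of the members of each role in GFP and PGC1A, with SD (n = 3) and the 3 libraries as points; the axis starts at 0. Synthetases and elongation genes make up most of the pool, and the elongation sum rose from 407 to 1274 CPM.

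Cytosolic synthetases load tRNAs for translation outside the organelle. Of 18 such genes, 12 rose and 5 fell (median 0.46 on the log2 scale), and 1 was higher by at least 2-fold. Over all tested genes the shares were 40.9% higher, 42.1% lower and 19.0% at least 2-fold higher. The gene with the 2-fold rise was QARS1, the glutaminyl enzyme, for which the GatCAB route stands in inside mitochondria. It had 124, 127 and 123 CPM in GFP and 343, 338 and 344 CPM in PGC1A, a clear separation (1.45, SE 0.03, adjusted p = 7.50e-43). The next largest rise was EPRS1 (glutamyl and prolyl, 0.85), and the largest falls were WARS1 (tryptophanyl, -0.24) and VARS1 (valyl, -0.13). GARS1 and KARS1, single genes that serve both compartments, rose by 0.83 and 0.59. With total counts 9 cytosolic synthetases were higher and 8 lower, beside 5778 and 10743 of the 19343 tested genes. Against a 1.5-fold change 7 were higher and 0 lower, beside 24.6% and 23.1% of tested genes.

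Set beside their cytosolic counterparts within each library, 17 synthetase pairs gave a higher mitochondrial to cytosolic ratio in PGC1A in 14 and a lower ratio in 3, with a median shift of 0.24 on the log2 scale. In 14 pairs the groups did not overlap, 11 higher and 3 lower. Over the 20 pairs compared, these and 3 elongation factor pairs, such pairs had an exact permutation p of 0.1 and an adjusted p of 0.118, so none could pass. For levels of single genes, 83.6% of tested genes had no overlap, and no such share was computed for ratios. The pairs are not independent, since FARS2 was set against both FARSA and FARSB, and EPRS1 against both EARS2 and PARS2. In the 13 pairs with 1 gene per amino acid, 11 ratios were higher and 2 lower, 9 and 2 of them without overlap. The ratio of MARS2 to MARS1 rose 9.31-fold, from a log2 of -4.50 ± 0.0175 to -1.28 ± 0.00376 (SD, n = 3). That of LARS2 to LARS1 rose 5.34-fold, from -2.53 ± 0.0302 to -0.12 ± 0.00883. WARS2 to WARS1 rose 2.94-fold, with log2 fold changes of 1.32 for WARS2 and -0.24 for WARS1.

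Lower ratios were found for NARS2 to NARS1 (-0.57 on the log2 scale), EARS2 to EPRS1 (-0.43) and RARS2 to RARS1 (-0.30). NARS1 rose by 0.65 while NARS2 did not pass. YARS2 and YARS1 rose alike, by 0.71 and 0.69, and their ratio overlapped between the groups (shift 0.02, exact permutation p = 0.8). Among elongation factors, TUFM rose 4.37-fold relative to EEF1A1, and GFM1 rose 3.23-fold relative to EEF2. EEF1A1 fell by 0.46 and EEF2 by 0.27 on the log2 scale. EEF1A1 has many near-identical pseudogene copies, so its count is uncertain.

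**Figure D4:**
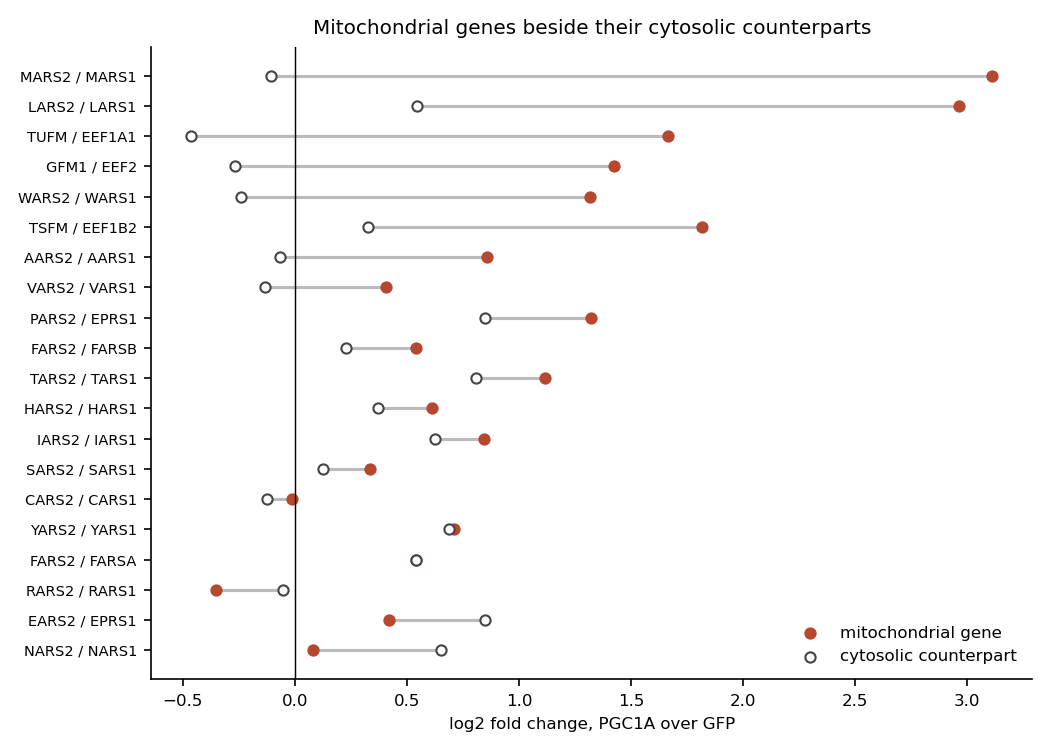
Log2 fold change of each mitochondrial gene (filled) and of its cytosolic counterpart (open), PGC1A over GFP, joined by a line and ordered by the shift of their ratio. MARS2 with MARS1 and LARS2 with LARS1 are farthest apart, and NARS2, EARS2 and RARS2 lie to the left of their counterparts.

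Of 21 other genes of mitochondrial translation and RNA modification, 15 rose and 4 fell (median 0.48 on the log2 scale), beside 40.9% and 42.1% of all tested genes. The largest rise was MPV17L2, a mitoribosome assembly factor, at 9.59, 10.5 and 9.49 CPM in GFP and 43.8, 46.0 and 41.8 CPM in PGC1A (2.15, SE 0.06, adjusted p = 3.94e-36). MRM1, an rRNA methyltransferase, rose by 1.58. PRORP, the nuclease subunit of mitochondrial RNase P, fell from 13.0, 11.2 and 13.8 CPM to 6.58, 6.65 and 6.94 CPM (-0.92, SE 0.08, adjusted p = 2.32e-14). Other subunits of that enzyme, HSD17B10 and TRMT10C, rose by 1.33 and 0.58, and both were picked after their values were seen. RBFA, a ribosome-binding factor, was at -0.50 and passed. In each of these genes the groups did not overlap. With total counts 11 of the 21 were higher and 8 lower, beside 5778 and 10743 of the 19343 tested genes. Against a 1.5-fold change 8 were higher and 1 lower, beside 24.6% and 23.1% of tested genes.

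What the members share beside their function was examined in their promoters and positions. RefSeq promoter windows were found for 39 of the 43 genes, 46 windows in all since some genes have several starts. Counted once per gene, an ETS match, CCGGAAG on either strand, was present in 21 of the 39 genes (53.8%), against 20.7% of 11520 tested coding genes with a window. NRF1 matches with a free base were in 15.4% of the members against 12.3%. The exact NRF1 match was in 1 member, MARS2 (2.56%), near the 2.44% of tested coding genes. YY1 matches were in 10.3% against 5.99%, all of them after the start. In only the 250 bases before the start, YY1 was in 0 members against 2.20% of tested coding genes. There the shares were 48.7% against 17.5% for ETS and 12.8% against 11.1% for NRF1 with a free base. The estrogen-related receptor site AAGGTCA was in 0 of the 39 members and in 3.86% of tested coding genes. Counted per window, where overlapping windows of 1 gene count separately, the shares were 47.8% against 15.3% for ETS, 13.0% against 8.94% for NRF1 with a free base and 10.9% against 4.32% for YY1, of whose 5 windows WARS2 gave 2. No match says only that these letters are not in these 300 bases. Among all of these coding genes, 60.7% of those with AAGGTCA were called higher against 42.7% of those without it. The same shares were 50% against 41.6% for ETS, 52.3% against 42.8% for YY1 and 47.5% against 42.8% for NRF1 with a free base. For the extended receptor site they were 58.1% against 43.2%, and for the exact NRF1 match 47.7% against 43.3%. Members with and without CCGGAAG had median log2 fold changes of 1.21 and 0.80, as a description.

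In each role, the member with the largest rise among those with an ETS match is shown with 9 bases on each side, turned to read CCGGAAG (capitals), so that the surrounding letters can be compared (RefSeq, GRCh38.p14).
MARS2, chr2:197705308-197705332, plus strand: gctttccggCCGGAAGctgcggcgc
GATB, chr4:151761076-151761100, plus strand: aggctcggaCCGGAAGactactatt
MTIF2, chr2:55269213-55269237, plus strand: cttctggacCCGGAAGaatggtcgg
GUF1, chr4:44678445-44678469, minus strand: gtaccagatCCGGAAGcaacccgaa
GFM2, chr5:74767115-74767139, minus strand: ggtacaccgCCGGAAGtgtggaggt
NSUN3, chr3:94063029-94063053, plus strand: ccgcgaatcCCGGAAGtcagactgt
MTG1, chr10:133394106-133394130, plus strand: cttggagcgCCGGAAGcccgcagtg
OXA1L, chr14:22766681-22766705, minus strand: ccattttgcCCGGAAGaggacttgc
These matches began between 84 bases before the gene start (GATB) and 34 bases after it (GUF1), and that of GFM2 lay 13 bases before the start.

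Some members start beside another gene. Within 1000 bases of the start, 15 of 43 members (34.9%) had a coding gene beginning on the opposite strand, against 16.2% of 14329 tested coding genes. Of the 14 such neighbours of members that were tested, 12 rose and 2 fell. Over all tested genes 40.9% were higher and 42.1% lower, and over the tested neighbours of all coding genes 50.6% and 37.0%. QRSL1 (1.33) and RTN4IP1, a mitochondrial reductase gene, rose together, the latter by 2.14, and TUFM (1.67) and SH2B1 rose with a log2 fold change of 1.10 for SH2B1. HARS2 (0.61) starts head to head with HARS1 (0.37), its cytosolic counterpart. EARS2 rose by 0.42 while UBFD1 fell by 0.97. RARS2 fell (-0.35) while ORC3, a replication origin gene that starts 64 bases away, rose by 0.68, and GTPBP3 did not pass (0.01) while ANO8 rose by 1.01. SARS2 (0.34, not passed) faces MRPS12, a protein of the small mitochondrial ribosomal subunit, which had 524, 628 and 642 reads in GFP and 2743, 2663 and 2438 in PGC1A and rose by 2.43. GATC fell together with TRIAP1, at -0.54 and -0.20.

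**Figure D5:**
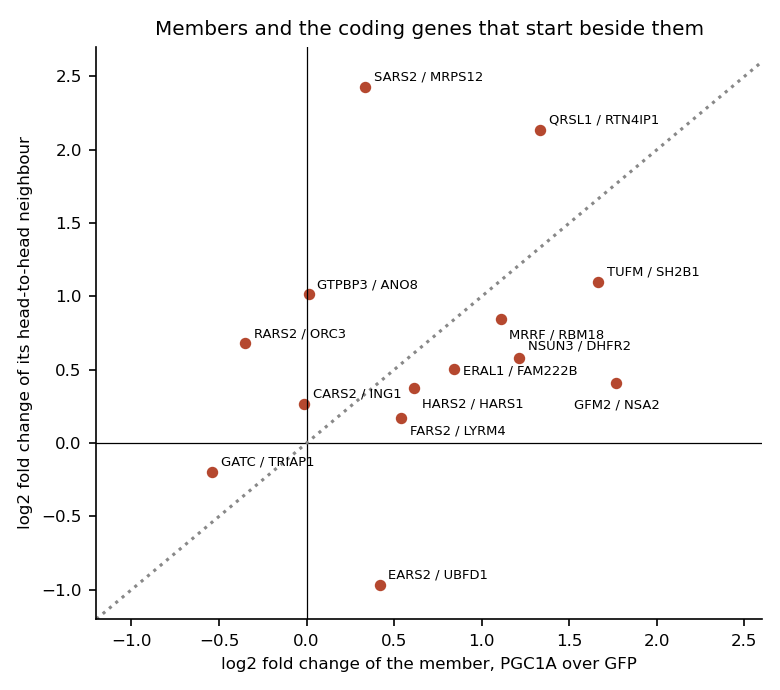
Log2 fold change of 14 members (horizontal) and of the coding gene that starts head to head with each (vertical), PGC1A over GFP; the dotted line marks equal change. QRSL1 and TUFM lie high on both axes. RARS2, which fell, and GTPBP3, SARS2 and CARS2, which did not pass, have neighbours that rose. EARS2, which rose, has a neighbour that fell.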

How the data were processed

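The deposited file held raw read counts per gene for 6 poly(A) libraries. GRCh38, HTSeq 0.10.0, STAR 2.6.0c, DESeq2 1.20.0 and DRAGEN are listed in the submitters' processing notes. Settings, strand mode and annotation release were not given in the sources used here. HTSeq's summary lines (28.8% to 31.0% of reads) were left out. Symbols, positions and exon lengths came from GENCODE 29 (57492 of 58096 identifiers found). All genes passing filterByExpr (minimum count 10, total 15) were fitted in edgeR 4.0.16 (R 4.3.3) with TMM factors, glmQLFit (robust) and glmQLFTest, with Benjamini-Hochberg adjustment over 19343 genes (threshold 0.05). CPM were computed here from the TMM-scaled library sizes, and promoters were read from RefSeq (GRCh38.p14). The procedure was also run on simulated counts with a small set of changed genes and a shared dispersion. Change in these libraries was far wider, so that run does not test the scaling. Alternatives were other scalings and filters, DESeq2 1.42.0, limma-voom (3.58.1), glmTreat, a replicate block and leaving out each library.

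The members and lists were chosen with earlier results of these data known. Members given library by library were the 2 with the largest absolute change in each role, those that fell and those that did not pass, plus TUFM, chosen after its values were seen. Comparison genes were the largest rises and falls, plus HSD17B10 and TRMT10C, picked after their values were seen. Ratios between members, summed levels, neighbouring genes and their background, the extended receptor site and the share of windows were added after seeing the data. Within-library ratios were tested by exact permutation, where 0.1 is the smallest p that 3 against 3 allows.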

Additional observations from a re-analysis of the deposited data

How the results depend on the processing

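The count of members called higher was 35 to 37 under every alternative except the test against a 1.5-fold change, which gave 30. Members called lower were 2 except with upper-quartile factors (4), total counts (6) and glmTreat (0). Their median log2 fold change was 1.07 with DESeq2-type size factors and with the DESeq2 Wald test, 0.90 with upper-quartile factors, 0.70 with total counts and 1.00 to 1.05 with 1 library left out. The gap to the median of all genes was 1.07 under each of these scalings. That was fixed in advance, since a change of scaling shifts all genes nearly alike. Against a 1.5-fold change, 4766 genes were higher and 4475 lower, cytosolic synthetases were 7 and 0, and the other mitochondrial translation genes 8 and 1. With total counts, 5778 genes were higher and 10743 lower, and 8 cytosolic synthetases and 8 other mitochondrial translation genes were lower. Members that did not pass changed sign under some settings. CARS2 was at 0.0226 with DESeq2-type size factors and 0.0215 with DESeq2. NARS2 was at -0.0484 with upper-quartile factors and -0.25 with total counts, GTPBP3 at -0.11 and -0.32, DDX28 at -0.11 and -0.31, and PDF at -0.17 with total counts. With 1 library left out, CARS2 ranged from -0.0487 to 0.0488 (highest without PGC1A replicate 3), GTPBP3 from -0.0203 to 0.0632 (lowest without PGC1A replicate 3, and below 0 also without GFP replicate 1) and DDX28 from -0.0721 to 0.0747 (lowest without GFP replicate 3). The cause was not tested. Libraries share replicate numbers across groups, but deviations of same-numbered libraries correlated at -0.0114, 0.00628 and 0.0109, so the numbers were not taken as pairs. With the replicate block, 35 members were higher and 2 lower, and over all genes 7914 and 8157. Depth limits PDF, at 25 to 40 reads per library, and SARS2, at 43 to 56.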
